A study of Homo sapiens with 8 samples.

Results

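The interaction of LATS1/2 knockdown and p53 knockdown was measured as a departure from additivity, gene by gene, in MCF10A cells. For each gene the log2 effect of LATS1/2 siRNA in cells without p53 siRNA was subtracted from its log2 effect in cells with p53 siRNA, that is (siLATS_p53 minus sip53) minus (siLATS minus siControl). A value of 0 means that the level under the combined knockdown was the sum of the separate effects. A positive value means that siLATS_p53 lay above that sum, and a negative value that it lay below. The difference was computed within batch 1 and within batch 2 and then fitted over all 8 libraries. Genes above the deposited floor of 5 (32 on the linear scale) in at least 2 of the 8 libraries were tested, which kept 12315 of 29991 entries, and 11356 of these were above the floor in all libraries.

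MCF10A is a spontaneously immortalised, non-tumorigenic line of human breast epithelium with basal features. The 4 groups were cells given a control siRNA (siControl), siRNA against both LATS1 and LATS2 (siLATS), siRNA against p53 (sip53), or the LATS1, LATS2 and p53 siRNAs together (siLATS_p53). The groups thus shared one cell line and a transfection, and the knockdowns were transient and partial rather than deletions. Each group had 2 libraries, numbered by independent batches of cells, and every pair of values below gives batch 1 first. Polyadenylated RNA was sequenced, and because the library kit did not keep strand, reads of overlapping genes cannot be told apart.

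LATS1 and LATS2 are the kinases at the end of the Hippo cascade. They phosphorylate the coactivators YAP and TAZ, which are then held in the cytoplasm or degraded, so that loss of LATS activity releases YAP/TAZ to act with TEAD factors on genes such as CTGF and CYR61. p53 is a transcription factor that induces CDKN1A, a cell cycle inhibitor, and MDM2, its own ubiquitin ligase, and LATS2 is known to bind MDM2 and stabilise p53. In breast epithelium both pathways restrain proliferation and influence epithelial identity.

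The libraries were checked before the interaction was read. LATS1 measured 9.54 and 9.64 in siControl, 7.93 and 8.10 with siLATS, 9.87 and 9.94 with sip53, and 7.97 and 7.90 with siLATS_p53. LATS2 measured 9.92 and 10.22 in siControl, 8.72 and 8.63 with siLATS, 9.74 and 10 with sip53, and 8.75 and 8.81 with siLATS_p53. In both batches the libraries given LATS1/2 siRNA were the lower ones for both kinases. The interaction of the kinases themselves did not pass with or without the batch as a block (LATS1 -0.40, with -0.29 and -0.50 in the batches, and LATS2 0.30, with 0.21 and 0.40; adjusted p = 0.178 and 0.297 with the block). Of 20 basal epithelial markers only NGFR was at the floor everywhere, whereas 9 of 20 luminal markers, KRT19 and PGR among them, were at the floor in all libraries. So were 7 of 11 fibroblast markers, including PDGFRA and PDGFRB, and 11 of 14 blood and endothelial markers, including PTPRC and PECAM1. Sequencing depth was not given. Estimated from the spacing of low values, it was 12.1 and 11.3 M reads for the siControl and siLATS_p53 libraries of batch 1, which enter the interaction with a plus sign, and 37.1 and 29.5 M for siLATS and sip53, which enter with a minus sign. In batch 2 the corresponding estimates were 25.8 and 30.8 against 22.4 and 25.6 M, and the part of depth in the results was not tested, so the batch values are printed beside the fitted one of each called gene.

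Departures from additivity were small for most genes, and their detection depended on whether the batch was in the model. The fitted interaction lay within 0.25 of 0 for 67.3% of the genes tested, and exceeded 1 in size for 0.68% (63 genes above 1 and 21 below -1). In the planned fit, without the batch, limma called 0 of 12315 genes at a Benjamini-Hochberg adjusted p of 0.05 (0%). In it 807 genes (6.55%) were below an unadjusted p of 0.05, and the lowest adjusted p was 0.57. With the batch as a block, the alternative on which the calls below rest, limma called 250 genes, which is 2.03% of those tested. Of these, 216 were positive (1.75%) and 34 negative (0.276%), with 2451 genes below an unadjusted p of 0.05. The block moved the median standard error of the interaction from 0.202 to 0.144 and left each estimate as it was, since each group had 1 library in each batch.

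The 250 calls with the block depended on single libraries and on the scaling. Leaving out 1 library at a time from the blocked fit gave 37 calls without siControl of batch 1, 1 without either sip53 library, and 0 without any 1 of the other libraries (siControl of batch 2, siLATS of either batch, siLATS_p53 of either batch). The whole distribution was shifted to the positive side, with a median of 0.097 over all genes tested (0.108 in batch 1 and 0.085 in batch 2). Rescaling each library by its median brought that median to 0.002, left 112 calls with the block (0.909%), and moved the share of positive calls from 86.4% to 61.6% (69 positive and 43 negative). Sizes below are on the deposited scale and can be read against the shift of 0.097.

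**Figure D1:**
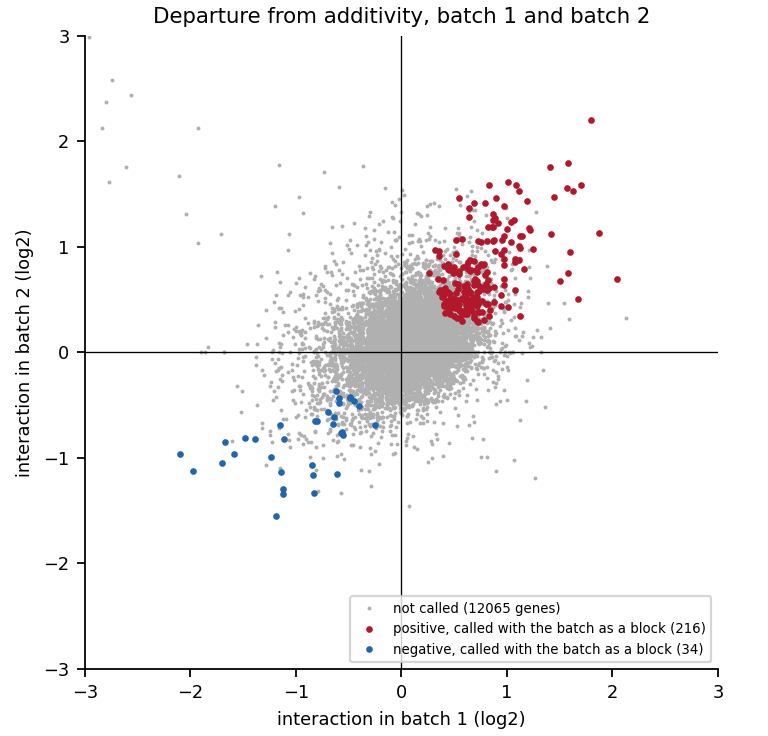
Interaction of each gene in batch 1 (horizontal axis, log2) and batch 2 (vertical axis, log2), 1 point per gene tested. Red and blue points are the 216 positive and 34 negative genes called with the batch as a block, which lie in the upper right and lower left corners.

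The batches share no library, so the interaction in one can be set beside the other. Across the 12315 genes, which are not independent replicates, Pearson's r between the batch values was 0.283 and Spearman's rho 0.31. The standard deviation over genes was 0.359 in batch 1 and 0.319 in batch 2. The values were positive in both batches for 45.2% of genes, negative in both for 17.4%, and opposite for 36.0%. Among genes above the floor in all libraries, the 100 with the highest interaction in batch 1 had a median of 0.511 in batch 2, and 82% of them were positive there, against 64.1% of all such genes. The 100 lowest of batch 1 had a median of -0.104 in batch 2, with 60% negative against 35.9% of all. Read the other way, the 100 highest of batch 2 had a median of 0.521 in batch 1 (75% positive against 65.7%) and the 100 lowest a median of -0.391 (82% negative against 34.3%). High values in one batch were thus mostly positive in the other, and each set exceeded the share of all such genes.

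The called genes can be described by the separate effects that make up their interaction. These effects share libraries with the interaction and were not tested here, and a size of 0.5 on the log2 scale was used to class them. The sign of the interaction limits which classes a gene can fall in, so the counts only describe the called genes. Over all genes tested, siLATS was at least 0.5 below siControl for 6.6%. For 75 of the 216 positive genes, siLATS was at least 0.5 below siControl, while siLATS_p53 was not 0.5 or more below sip53. For 48, LATS1/2 siRNA made a difference under 0.5 by itself, while siLATS_p53 was at least 0.5 above sip53. Another 63 stayed under 0.5 in both backgrounds, 19 were at least 0.5 lower in both, and 11 at least 0.5 higher in both. Of the 34 negative genes, 12 were at least 0.5 higher with LATS1/2 siRNA alone but not on top of p53 siRNA, 7 were higher in both backgrounds, 6 were lower only on top of p53 siRNA, and 9 were under 0.5 in both. The median interaction was 0.642 for the positive genes (0.68 in batch 1 and 0.626 in batch 2) and -0.901 for the negative genes (-0.824 and -0.792). On the linear scale 215 of the 216 positive and 34 of the 34 negative genes kept their sign.

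**Figure D2:**
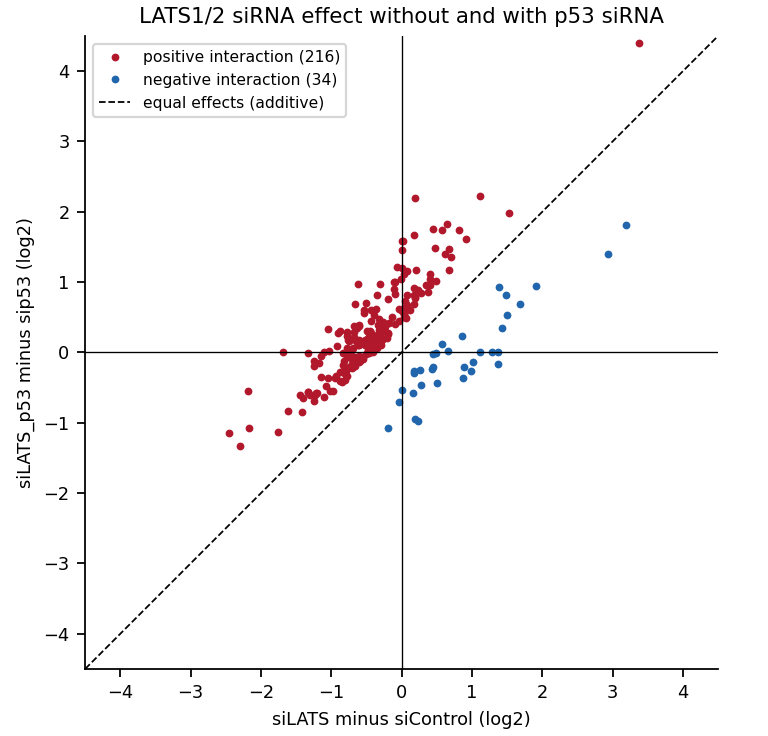
Difference made by LATS1/2 siRNA without p53 siRNA (horizontal axis, siLATS minus siControl, log2) and with it (vertical axis, siLATS_p53 minus sip53, log2) for the 250 genes called with the batch as a block. Vertical distance from the dashed line is the interaction, and the 216 red points lie above the line and the 34 blue points below it.

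The NF-kB and cytokine list had the highest fitted median of the 22 lists, though not the highest in either batch. NF-kB is a family of dimeric transcription factors that inflammatory signals release from inhibitors in the cytoplasm, and its targets include cytokines, acute-phase proteins, survival genes and its own inhibitors. Of 34 members tested, 10 were called as positive with the block and 0 as negative (29.4% against the 2.03% of all genes called). Of the 34, 28 were positive in both batches. The called shares of the lists below are likewise to be read against 2.03%. The median interaction of the members was 0.504 (0.291 in batch 1 and 0.564 in batch 2), beside 0.097 over all genes. After rescaling, 5 members were called with the block, and without the block 0 were. IL6, SOD2 and SAA2 were among the 5, and IL8 was not. Some of the members described below as called therefore do not pass after rescaling. Their adjusted p values are those before rescaling unless stated.

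Several of the called members carry a match to the NF-kB consensus just before their start, as does ELF3, an epithelial factor outside the list with one of the largest interactions. The stretches of IL6, NFKBIA and ELF3 are shown as examples, each a called gene above the additive level. The sequences are RefSeq's for GRCh38.p14, on the strand of each gene, with the match in capitals.
IL6 (chr7:22727067-22727146, plus strand): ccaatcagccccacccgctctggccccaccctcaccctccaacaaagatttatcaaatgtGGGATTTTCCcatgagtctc
NFKBIA (chr14:35404811-35404890, minus strand): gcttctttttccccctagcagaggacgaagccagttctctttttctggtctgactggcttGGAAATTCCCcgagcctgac
ELF3 (chr1:202010439-202010518, plus strand): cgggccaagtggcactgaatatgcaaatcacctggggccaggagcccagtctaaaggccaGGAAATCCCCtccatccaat
The 10-base NF-kB consensus was searched on both strands of the 250 bases before each start, without regard to other motifs. A match was found in 12 of the 26 tested list members with a sequence (46.2%) and in 5 of the 8 called ones (62.5%). Over all promoters of the table the share was 5.1%, over the tested genes 5.9%, and over the 191 called genes with a sequence 8.9% (17 genes). SOD2, IL8 and ICAM1 had no match in this window. ELF3 is among these 17 called genes with a match. The list was chosen to hold NF-kB genes and cytokines, so its higher share tells nothing about the interaction. The 8 called members are too few to set against the list. A match describes the letters only.

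IL6, which encodes an inflammatory cytokine, was at the floor of 5 in siControl and sip53 of both batches and in siLATS of batch 2, and at 5.38 in siLATS of batch 1. In siLATS_p53 it measured 7.18 and 7.20, so that it stood clear of the floor in both batches only under the combined knockdown. Its interaction was 2.00 (1.80 and 2.20, adjusted p = 0.00688 with the block and 0.570 without). The floor leaves both this size and the p-value uncertain, because 5 of 8 libraries are at it. IL6 met the filter for testing only through siLATS_p53, the group in which it was high. Its place among the called members therefore gives no support of its own. Tumour necrosis factor (TNF) was likewise at 5 in siControl and siLATS, and its interaction of 0.77 (0.76 and 0.78) did not pass (adjusted p = 0.168 with the block).

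SOD2, the mitochondrial superoxide dismutase and an abundant NF-kB target, measured 12.02 and 11.89 in siControl, 11.20 and 11.06 with siLATS, 11.39 and 11.16 with sip53, and 11.30 and 11.01 with siLATS_p53. Either knockdown was lower than control by about the same amount, and the combined one lay close to both single ones. The sum of the separate effects would be 10.58 and 10.33. The interaction was 0.70 (SE 0.10 with the block, 0.72 and 0.68, adjusted p = 0.00934 with the block and 0.740 without), 1.63-fold above additivity. IL8, a neutrophil chemokine, measured 12.02 and 9.69 in siControl, 10.74 and 8.31 with siLATS, 10.97 and 9.33 with sip53, and 10.70 and 9.57 with siLATS_p53. Batch 1 was above batch 2 in each group, and the control library was the highest of its batch. Its interaction of 1.32 (1.01 and 1.62) passed with the block (adjusted p = 0.0447) but not after rescaling (0.0988).

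Inhibitors of the pathway and an inhibitor of apoptosis were called at a smaller size. NFKBIA, the inhibitor that retains NF-kB in the cytoplasm, measured 11.42 and 11.37 in siControl, 10.85 and 10.79 with siLATS, 11.56 and 11.38 with sip53, and 11.50 and 11.24 with siLATS_p53. In both batches siLATS was the lowest group, and the difference made by LATS1/2 siRNA was -0.57 without p53 siRNA and -0.10 with it. The interaction of NFKBIA was 0.48 (0.52 and 0.44, adjusted p = 0.0393 with the block), and that of TNFAIP3, the ubiquitin-editing inhibitor A20, was 0.50 (0.46 and 0.55, adjusted p = 0.0251). BIRC3, an apoptosis inhibitor, had an interaction of 0.59 (0.69 and 0.48, adjusted p = 0.0102), with siLATS lowest at 12.08 and 11.99 and siLATS_p53 at 13.23 and 13.04.

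The other called members, like IL6, were highest under the combined knockdown. ICAM1, the leukocyte adhesion molecule, measured 9.35 and 8.62 in siControl, 10.14 and 9.19 with siLATS, 9.18 and 8.31 with sip53, and 10.49 and 9.95 with siLATS_p53, an interaction of 0.80 (0.52 and 1.07, adjusted p = 0.0236). IL32, a proinflammatory cytokine, had an interaction of 0.78 (0.69 and 0.87, adjusted p = 0.0235) and was likewise highest in siLATS_p53 (9.21 and 9.41). SAA2, an acute-phase apolipoprotein, measured 10.35 and 8.77 in siControl, 10.24 and 8.66 with siLATS, 10.53 and 8.69 with sip53, and 11.22 and 10 with siLATS_p53. Neither single knockdown differed from control by more than 0.19, while the combined one was the highest library of each batch. The interaction of SAA2 was 1.11 (0.79 and 1.42, adjusted p = 0.00934) and that of SAA1 was 0.65 (0.32 and 0.97, adjusted p = 0.0459), but the transcripts are near-identical and reads may have been split between them. Among members that did not pass, the subunits NFKB1 (0.12), NFKB2 (0.13) and RELB (0.39) and the cytokines IL1A (-0.06), IL1B (0.32) and CXCL1 (0.78) had adjusted p values between 0.0574 and 0.772 with the block.

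**Figure D3:**
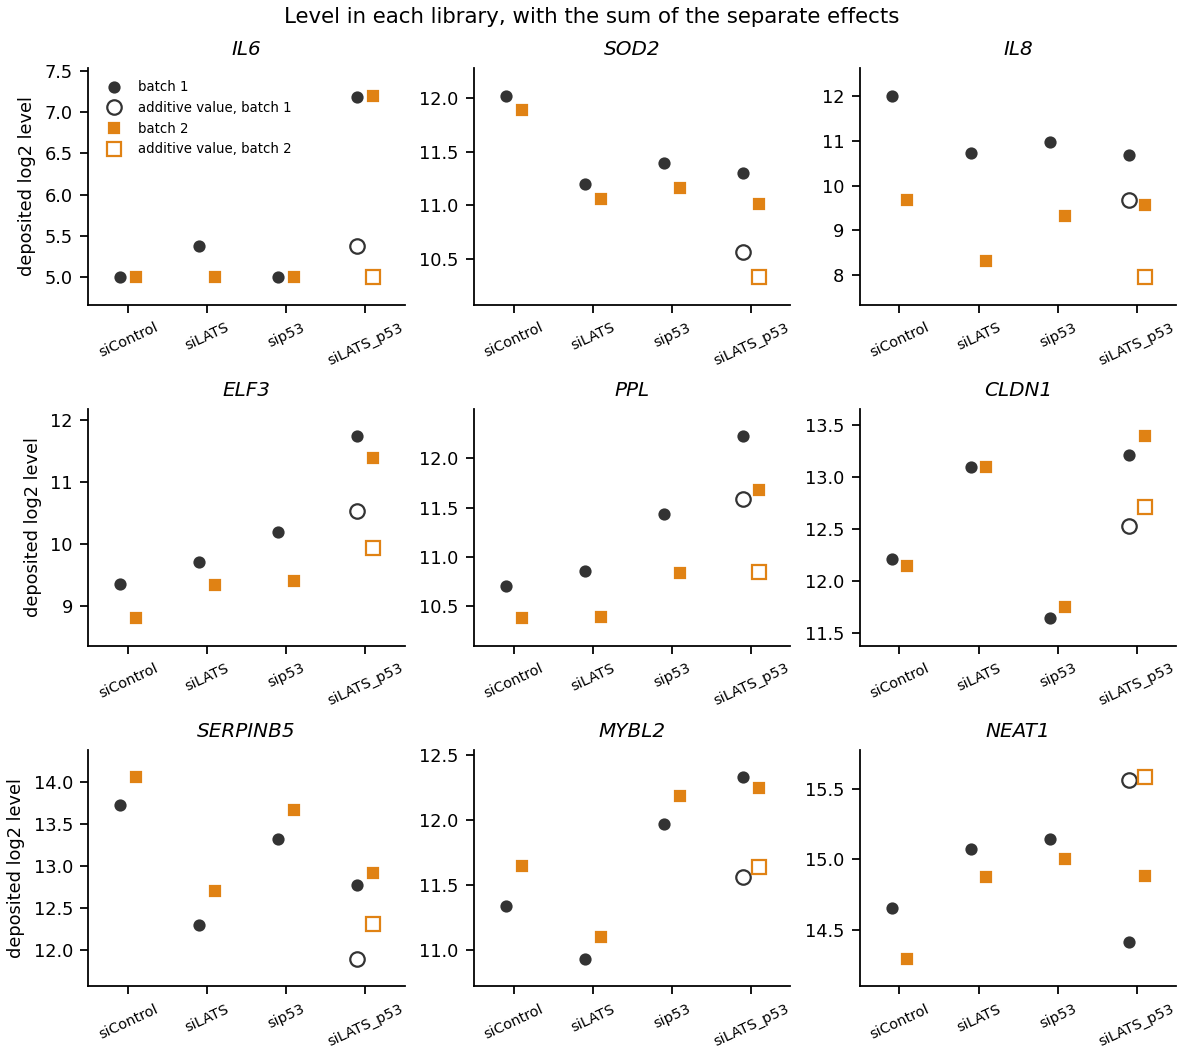
Deposited log2 level of 9 genes in each of the 8 libraries (filled circles batch 1, filled squares batch 2), with open symbols at the level that the separate effects would add up to. For 8 genes the filled siLATS_p53 symbols lie above the open ones in both batches, and for NEAT1 they lie below.

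Genes of epithelial identity were also among the called positive genes. ELF3, an ETS family transcription factor of epithelial cells, measured 9.36 and 8.81 in siControl, 9.71 and 9.34 with siLATS, 10.19 and 9.41 with sip53, and 11.73 and 11.39 with siLATS_p53. Both single knockdowns were above control, and the combined one was above every other library. The additive level would be 10.54 and 9.94, and the interaction was 1.32 (SE 0.15 with the block, 1.19 and 1.44), or 2.49-fold over additivity. It passed with the block (adjusted p = 0.00257, and 0.00904 after rescaling) and not without it (0.740).

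PPL (periplakin, a linker of the desmosomal plaque) measured 10.71 and 10.38 in siControl, 10.86 and 10.39 with siLATS, 11.44 and 10.84 with sip53, and 12.22 and 11.68 with siLATS_p53. MUC1, a cell surface mucin, measured 11.38 and 10.71, 11.48 and 10.96, 11.68 and 10.99, and 12.41 and 12.10 in the same order. LATS1/2 siRNA alone made a difference of 0.08 for PPL and 0.17 for MUC1, against 0.81 and 0.92 on top of p53 siRNA. The interaction was 0.73 for PPL (0.62 and 0.83, adjusted p = 0.00934 with the block) and 0.74 for MUC1 (0.63 and 0.86, adjusted p = 0.0121). CLDN1, the tight junction protein claudin-1, measured 12.21 and 12.14 in siControl, 13.10 and 13.10 with siLATS, 11.64 and 11.75 with sip53, and 13.21 and 13.39 with siLATS_p53. Here the p53 effect was the one that differed in sign, at -0.48 without and 0.20 with LATS1/2 siRNA, and the interaction was 0.68 (0.69 and 0.68, adjusted p = 0.00934 with the block).

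The junction list as a whole did not share this. Of 34 members tested, ELF3, CLDN1 and PPL were called as positive with the block (8.82%), 0 were called as negative, and the median was 0.082, below the 0.097 of all genes. CDH1, the E-cadherin gene, measured 13.04 and 12.80 in siControl, 13.53 and 13.53 with siLATS, 13.44 and 13.19 with sip53, and 14.27 and 14.09 with siLATS_p53. It was highest in siLATS_p53 in both batches, yet its interaction was 0.26 (0.34 and 0.17) and did not pass (adjusted p = 0.192 with the block). Of the 11 luminal markers tested, MUC1 and the keratin KRT7 (0.48, with 0.37 and 0.59, adjusted p = 0.0459, and 0.105 after rescaling) were called (18.2%). The luminal list did not share one direction. Its median was 0.132, and 6 members were positive in both batches. ESR1 (-0.58), EPCAM (-0.29), GATA3 (-0.26) and XBP1 (-0.04) were the 4 negative in both, and none of these 4 passed. Of the 18 basal markers tested 0 were called, too few genes to set apart from the 2.03% of all genes. Their median was 0.131, and after rescaling ITGA6 was called as negative (0.0438). DST, a basal marker whose symbol repeats in the table, was left out of these counts. An entry of DST was called as negative with the block, at -0.66 (-0.55 and -0.78, adjusted p = 0.00934).

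Among 29 genes of squamous differentiation and the cornified envelope, 4 were called as positive and 1 as negative with the block (17.2%), and the median was 0.216 (0.105 and 0.303). KLK7, a serine protease of shedding epidermis, measured 9.61 and 9.44 in siControl, 9.01 and 9.25 with siLATS, 9.78 and 9.56 with sip53, and 10.14 and 10.26 with siLATS_p53. TGM1, the transglutaminase that crosslinks the envelope, measured 9.85 and 9.55, 8.87 and 8.98, 10.20 and 9.83, and 10.19 and 9.95 in the same order. Both were lowest in siLATS, and the LATS1/2 effect was -0.39 without and 0.53 with p53 siRNA for KLK7, and -0.78 and 0.06 for TGM1. The interactions were 0.93 for KLK7 (0.97 and 0.89, adjusted p = 0.0150), 0.84 for TGM1 (0.97 and 0.70, adjusted p = 0.0214) and 0.70 for the related protease KLK10 (0.70 and 0.70, adjusted p = 0.00934). CLCA2, a membrane protein of stratified epithelia, went the other way. It measured 13.16 and 12.83 in siControl, 12.95 and 12.95 with siLATS, 13.24 and 13.00 with sip53, and 12.46 and 12.37 with siLATS_p53, lowest under the combined knockdown in both batches. Its interaction was -0.67 (-0.57 and -0.76, adjusted p = 0.0122). Involucrin (IVL, 0.22), KRT10 (0.05) and filaggrin (FLG, -0.41), other members of this list, did not pass.

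The clade B serpins, intracellular protease inhibitors, were split. SERPINB5 (maspin), a p53 target and tumour suppressor of breast epithelium, measured 13.73 and 14.06 in siControl, 12.30 and 12.70 with siLATS, 13.32 and 13.67 with sip53, and 12.77 and 12.92 with siLATS_p53. LATS1/2 siRNA was lower than its reference in both backgrounds, by less with p53 siRNA (-0.65) than without (-1.40). The interaction was 0.75 (0.88 and 0.62, adjusted p = 0.00779 with the block). SERPINB1, the leukocyte elastase inhibitor, had an interaction of 0.97 (1.08 and 0.86, adjusted p = 0.00934) and SERPINB2, plasminogen activator inhibitor 2, one of 0.47 (0.36 and 0.57, adjusted p = 0.0473). SERPINB13 measured 9.21 and 9.51 in siControl, 10.69 and 11.01 with siLATS, 9.38 and 9.56 with sip53, and 10.20 and 10.38 with siLATS_p53. It was highest in siLATS, and its interaction was -0.66 (-0.65 and -0.68, adjusted p = 0.0173). Of the 9 members tested these 4 were called (44.4%). After rescaling SERPINB5 (0.0139), SERPINB13 (0.0162) and SERPINB1 (0.0225) stayed called, and SERPINB2 did not.

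Cell cycle genes lay mostly above additivity, S phase genes in both batches and G2/M genes chiefly in batch 1, with few single calls. Of 49 S phase genes, 47 were positive in both batches, against 45.2% of all genes, and 3 were called with the block (6.12%), all as positive. Their median was 0.258 (0.287 in batch 1 and 0.245 in batch 2). Of 55 G2/M genes, 42 were positive in both batches and 5 were called (9.09%), all as positive. Their median was 0.326, but it was 0.488 in batch 1 and 0.144 in batch 2, beside 0.108 and 0.085 over all genes. After rescaling the medians were 0.162 and 0.231, and 0 S phase and 2 G2/M genes were called with the block. The median LATS1/2 effect over the S phase genes was -0.343 without p53 siRNA and -0.086 with it, and over the G2/M genes -0.397 and -0.07.

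MYBL2, a transcription factor that drives late cell cycle genes, measured 11.34 and 11.65 in siControl, 10.93 and 11.10 with siLATS, 11.97 and 12.19 with sip53, and 12.33 and 12.25 with siLATS_p53. Control exceeded siLATS, while siLATS_p53 exceeded sip53. The interaction of MYBL2 was 0.69 (0.77 and 0.60, adjusted p = 0.0150 with the block and 0.0333 after rescaling). NCAPG, a condensin subunit, measured 11.40 and 11.33, 10.76 and 10.78, 11.82 and 11.76, and 11.76 and 11.72 across the groups, an interaction of 0.55 (0.57 and 0.52, adjusted p = 0.0150, and 0.0420 after rescaling). TK1, the thymidine salvage kinase, measured 9.43 and 9.63 in siControl, 9.31 and 9.10 with siLATS, 9.73 and 9.81 with sip53, and 10.12 and 10.21 with siLATS_p53. In both batches siLATS_p53 was the highest library. Its interaction of 0.72 (0.52 and 0.93, adjusted p = 0.0283) did not pass after rescaling (0.0665). Nor did those of the replication factors GINS1 (0.60, with 0.73 and 0.46) and MCM2 (0.45, with 0.42 and 0.49) and the phosphatase CDC25B (0.47, with 0.56 and 0.39), which passed before it. The mitotic regulators CENPF (0.03), ASPM (0.03) and FOXM1 (0.41) did not pass (adjusted p between 0.0578 and 0.917 with the block).

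The readouts CTGF, CYR61, CDKN1A and MDM2 did not pass on the deposited scale, with or without the block. CTGF, a secreted YAP target, measured 8.46 and 8.45 in siControl, 9.59 and 9.57 with siLATS, 7.20 and 6.98 with sip53, and 8.33 and 8.47 with siLATS_p53. Its additive level would be 8.34 and 8.09, and the interaction was 0.19 (0.00 and 0.38; SE 0.17 and adjusted p = 0.583 with the block). CYR61, another secreted YAP target, measured 10.51 and 10.39, 11.52 and 11.33, 9.34 and 9.08, and 10.56 and 10.39 in the same order, with an interaction of 0.29 (0.21 and 0.37, SE 0.11, adjusted p = 0.181). For both genes the libraries with LATS1/2 siRNA were above and those with p53 siRNA below their references in each batch, and the combined library lay near siControl. Over 32 YAP/TAZ targets the median was 0.087, and 1 gene was called (3.12%, against 2.03% of all genes). That gene, TGM2 (tissue transglutaminase), measured 9.81 and 9.05 in siControl, 9.53 and 8.92 with siLATS, 7.38 and 6.90 with sip53, and 7.98 and 7.83 with siLATS_p53. Its interaction of 0.96 (0.87 and 1.06, adjusted p = 0.0299) did not pass after rescaling (0.0733), and CRIM1 (-0.40, with -0.32 and -0.49, adjusted p = 0.0505) was then called as negative (0.0326). Of the 26 Hippo pathway genes 0 were called with or without the block, and their median was 0.116. They are too few for 0 calls to be set apart from the 2.03% of all genes called with the block.

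CDKN1A measured 12.29 and 12.83 in siControl, 12.88 and 13.07 with siLATS, 9.82 and 10.06 with sip53, and 9.89 and 10.16 with siLATS_p53. The p53 effect was -2.62 without LATS1/2 siRNA and -2.95 with it, and the interaction of -0.34 (-0.53 and -0.14, SE 0.12) did not pass (adjusted p = 0.155 with the block). MDM2 measured 12.34 and 12.20 in siControl, 12.40 and 12.36 with siLATS, 11.14 and 11.05 with sip53, and 10.98 and 10.57 with siLATS_p53. Its interaction was -0.42 (-0.22 and -0.63), with an adjusted p of 0.0872 with the block and 0.0491 with the block and rescaling. Over 51 p53-activated targets the median was -0.029, with SERPINB5 called as positive and DRAM1 as negative (3.92%, against 2.03% of all genes). After rescaling MDM2 and the lipid transporter ABCA12 (-0.36, with -0.30 and -0.42, adjusted p = 0.0799 before and 0.0367 after) were also called as negative. DRAM1, a p53-induced autophagy regulator, measured 9.72 and 9.61 in siControl, 10.47 and 10.17 with siLATS, 9.79 and 9.59 with sip53, and 9.84 and 9.60 with siLATS_p53. The siLATS libraries were the highest of their batch and the other groups were close together. Its interaction was -0.63 (-0.70 and -0.56, adjusted p = 0.0251).

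**Figure D4:**
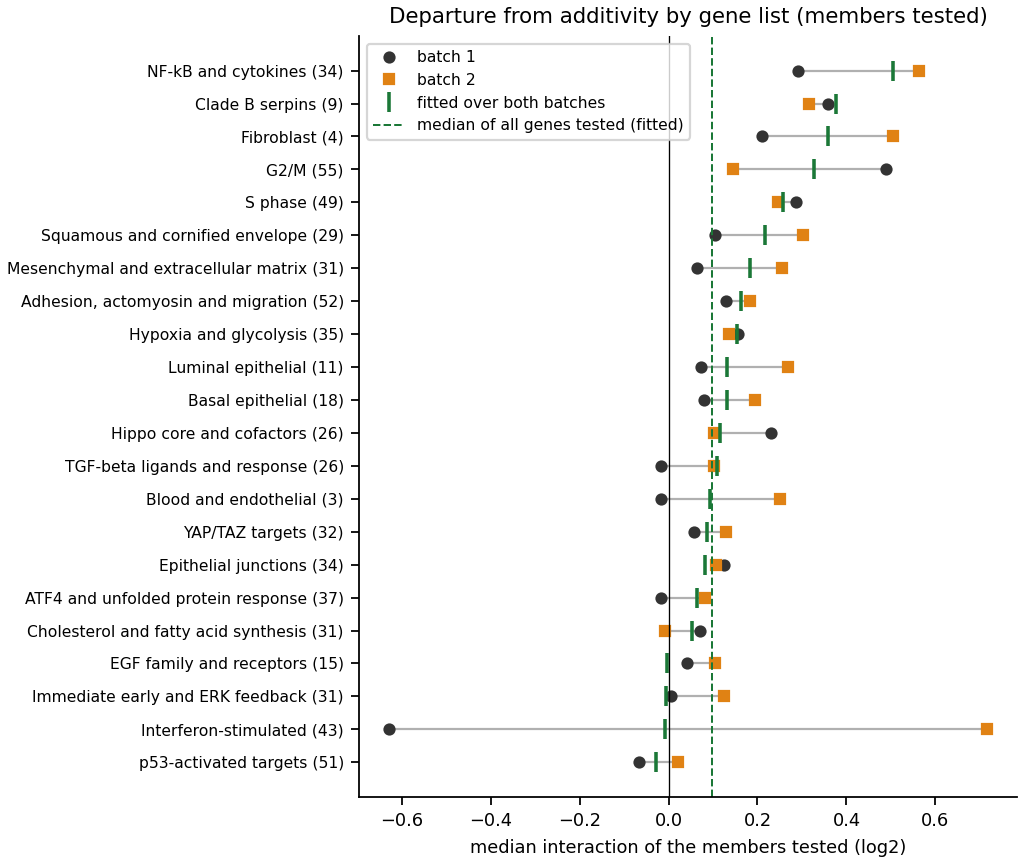
Median interaction (log2) of the tested members of each of the 22 gene lists in batch 1 (circles), in batch 2 (squares) and fitted over both (green ticks), with the number of members in parentheses and the median of all genes (0.097) as a dashed line. The NF-kB and cytokine list has the highest fitted median, 0.504, and the interferon-stimulated list has the widest gap between the batches.

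Of 31 immediate early and ERK feedback genes, 3 were called (9.68%), all as positive, while the list had a median of -0.006. EGR1 measured 10.81 and 10.74 in siControl, 8.98 and 9.07 with siLATS, 9.52 and 9.67 with sip53, and 8.40 and 8.51 with siLATS_p53. Each knockdown was below control and the combined one was lowest, but less so than the additive level of 7.68 and 7.99, an interaction of 0.62 (0.72 and 0.53, adjusted p = 0.0344). KLF6 (0.50, with 0.44 and 0.57, adjusted p = 0.0193) and KLF10 (0.47, with 0.49 and 0.46, adjusted p = 0.0483), both zinc finger factors, were also called. After rescaling KLF6 still passed (0.0498), whereas EGR1 (0.0852) and KLF10 (0.107) did not, and the ERK phosphatase DUSP4 (-0.31 on the deposited scale, with -0.29 and -0.33) was then called as negative (0.0477).

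Genes of migration and of the mesenchymal state were mixed. SNAI2, a repressor of epithelial genes, measured 11.08 and 11.45 in siControl, 9.41 and 9.82 with siLATS, 10.10 and 10.55 with sip53, and 9.01 and 9.27 with siLATS_p53, and its interaction of 0.46 (0.58 and 0.34) did not pass (adjusted p = 0.0663 with the block). VIM, the intermediate filament vimentin, measured 13.14 and 13.16, 12.45 and 12.25, 12.59 and 12.71, and 12.39 and 12.31 in the same order. The level of VIM under the combined knockdown was close to that under LATS1/2 siRNA alone, and the interaction was 0.51 (0.50 and 0.51, adjusted p = 0.0337, and 0.0923 after rescaling). TIMP3, an inhibitor of matrix metalloproteinases, measured 13.69 and 14.10 in siControl, 13.74 and 14.06 with siLATS, 13.60 and 13.84 with sip53, and 13.05 and 13.32 with siLATS_p53. It was lowest under the combined knockdown while LATS1/2 siRNA alone made a difference of 0.01. The interaction was -0.54 (-0.59 and -0.48, adjusted p = 0.0150). COL12A1, a fibril-associated collagen, measured 11.86 and 11.44, 13.18 and 12.88, 12.63 and 12.30, and 13.46 and 13.32. It was highest in siLATS_p53, yet below the additive level of 13.96 and 13.75, an interaction of -0.46 (-0.49 and -0.42, adjusted p = 0.0414). These 3 were the ones called of 31 mesenchymal and matrix genes (9.68%). In the adhesion and migration list 2 of 52 were called (3.85%, against 2.03% of all genes). They were the urokinase gene PLAU (0.62, with 0.45 and 0.78, adjusted p = 0.0277, and 0.0852 after rescaling) and the integrin ITGB6 (0.55, with 0.61 and 0.48, adjusted p = 0.0251, and 0.0688 after rescaling). The direction of that list turned with the scaling, since after it 0 members were called as positive and 2 as negative, the integrin ITGA6 (-0.45, with -0.37 and -0.52, adjusted p = 0.0505 before and 0.0438 after) and the tropomyosin TPM1 (-0.44, with -0.55 and -0.33, 0.0713 and 0.0461). In the mesenchymal list 3 were then called as negative, TIMP3, COL12A1 and the fibrillin FBN2 (-0.43, with -0.48 and -0.38, 0.0663 and 0.0491), and 0 as positive.

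For TLR1, KANK4 and C1orf38 the difference made by LATS1/2 siRNA had opposite signs without and with p53 siRNA in both batches, with mean effects of at least 0.5 in size each way. Families of near-identical copies were not looked at for this. TLR1, a receptor for bacterial lipopeptides, measured 7.09 and 6.45 in siControl, 6.49 and 5.82 with siLATS, 6.83 and 5.63 with sip53, and 7.64 and 6.76 with siLATS_p53. The combined knockdown was the highest library of each batch although both single ones were below control. Its interaction was 1.59 (1.41 and 1.76, SE 0.25 with the block, adjusted p = 0.00934), 3.01-fold over additivity. KANK4 had an interaction of 1.14 (1.04 and 1.24, adjusted p = 0.0173). That of C1orf38 was 1.34 (1.09 and 1.59, adjusted p = 0.0303), and it did not pass after rescaling (0.0613). C1orf38 was also near the floor in batch 2, at 5.54 with siLATS and an additive level of 5.28.

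ATP2B4, a plasma membrane calcium pump, measured 12.58 and 12.62 in siControl, 11.87 and 11.97 with siLATS, 12.51 and 12.52 with sip53, and 12.61 and 12.56 with siLATS_p53. The siLATS libraries stood apart below the other 6, and the interaction was 0.75 (0.82 and 0.69, SE 0.09, adjusted p = 0.00469 with the block). Without the block ATP2B4 shared the lowest adjusted p, 0.570. SLC26A2, a sulfate transporter, had an interaction of 0.90 (0.97 and 0.83, SE 0.10, adjusted p = 0.00257), and SCNN1G, a subunit of the epithelial sodium channel, one of 0.77 (0.73 and 0.81, adjusted p = 0.0121). JPH2, a junctophilin, measured 9.24 and 9.47 in siControl, 9.50 and 9.21 with siLATS, 9.58 and 9.39 with sip53, and 10.52 and 10.55 with siLATS_p53. Its 6 libraries outside siLATS_p53 lay within 9.21 to 9.58, and the interaction was 1.06 (0.69 and 1.42, adjusted p = 0.00934). ANGPTL4, an inhibitor of lipoprotein lipase, measured 12.97 and 12.94, 12.14 and 11.93, 10.88 and 10.87, and 10.69 and 11.23 across the groups, an interaction of 1.00 (0.64 and 1.37, adjusted p = 0.0150).

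The negative side held fewer genes. NEAT1, the long noncoding RNA that scaffolds nuclear paraspeckles, measured 14.65 and 14.29 in siControl, 15.07 and 14.87 with siLATS, 15.14 and 15 with sip53, and 14.41 and 14.88 with siLATS_p53. Each single knockdown was above control in both batches, whereas the combined one was below both single ones in batch 1 and close to them in batch 2. Its interaction was -0.92 (-1.15 and -0.69, SE 0.19 with the block, adjusted p = 0.0315), a level 1.90-fold under additivity. STC2, a secreted glycoprotein hormone, and SLC4A7, a sodium bicarbonate cotransporter, also had both single knockdowns above control, with interactions of -0.50 (-0.62 and -0.37, adjusted p = 0.0373) and -0.47 (-0.25 and -0.69, adjusted p = 0.0473). XDH, which makes uric acid, measured 11.42 and 11.77 in siControl, 11.62 and 11.90 with siLATS, 10.69 and 11.26 with sip53, and 10.06 and 10.75 with siLATS_p53. It was lowest under the combined knockdown, and its interaction was -0.73 (-0.82 and -0.65, adjusted p = 0.0167). OBFC2A, which encodes a single-stranded DNA binding protein, was highest in siLATS (11.17 and 10.64) and lowest in sip53 (9.47 and 9.07), with an interaction of -0.63 (-0.64 and -0.61, adjusted p = 0.0296). ORMDL1, a regulator of sphingolipid synthesis (-0.51, with -0.59 and -0.43, adjusted p = 0.0466), and the zinc finger pseudogene ZNF37BP (-0.73, with -0.80 and -0.65, adjusted p = 0.0251) were also called.

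Interferon-stimulated genes lay on opposite sides of additivity in the batches. These are the antiviral genes that type I interferon induces. Of 43 tested, 39 were negative in batch 1 and 38 positive in batch 2, and 35 were both, against 17.7% of all genes. The median interaction was -0.628 in batch 1 and 0.717 in batch 2, so that the fitted median was -0.009 and 0 members were called in either fit. In batch 1 the median level of the members was 7.37 in siControl, 9.72 with siLATS, 8.79 with sip53, and 9.55 with siLATS_p53. In batch 2 it was 6.63, 7.04, 6.76 and 8.60. The list was thus high in all 3 knockdown libraries of batch 1 and only in the combined knockdown of batch 2. IFI6 shows the range, at 7.09 in siControl, 11.04 with siLATS, 9.32 with sip53, and 10.32 with siLATS_p53 of batch 1. In batch 2 its levels in siControl, siLATS and sip53 were 5, 5.43 and 5.72, and its interaction was -2.96 in batch 1 and 2.99 in batch 2. IFIT1 gave -2.74 and 2.58 and ISG15 -1.93 and 2.13, each at the floor in siControl of both batches. IRF1 (0.29 and 0.67) and PSMB8 (0.29 and 0.38) were positive in both. So was IFITM3, an interferon-stimulated gene outside the list that was looked at after its values were seen. It was called as positive with the block, at 0.51 (0.26 and 0.75, limma adjusted p = 0.0466).

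**Figure D5:**
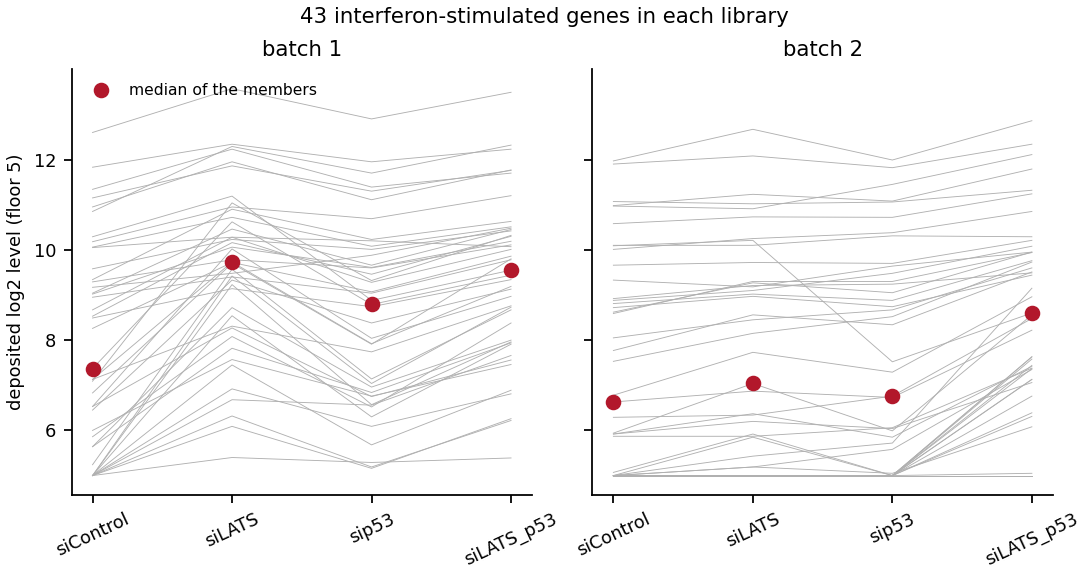
Deposited log2 level of the 43 interferon-stimulated genes tested (grey lines) and their median (red points) in the 4 libraries of batch 1 (left) and of batch 2 (right). In batch 1 the median is 9.72 in siLATS and 9.55 in siLATS_p53, and in batch 2 it is 7.04 and 8.60.

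Further lists with 0 or 1 called members were those of cholesterol synthesis (median 0.052), ATF4 and the unfolded protein response (0.063), TGF-beta response (0.11), hypoxia (0.154), EGF family (-0.004), fibroblast markers (0.359 over 4 genes) and blood and endothelial markers (0.093 over 3 genes). These lists are too small to set 0 or 1 calls apart from the 2.03% of all genes. The 4 fibroblast markers above the floor included DCN, at 9.86 and 7.02 in siControl, 7.87 and 5 with siLATS, 9.53 and 6.14 with sip53, and 8.39 and 5 with siLATS_p53. At the threshold the genes just inside were PINK1 (0.61, with 0.59 and 0.63) and STRA6 (1.01, with 0.55 and 1.46), both with an adjusted p of 0.0497 with the block, and those just outside were ADI1 (0.50, adjusted p = 0.0501) and ATP8A1 (-0.86, adjusted p = 0.0505).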

How the data were processed

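The authors' deposited table holds log2 expression levels of MCF10A libraries, with every value below 5 set to 5. Per the submitters' processing notes, reads were aligned with TopHat to hg19; no version is named, and how reads were counted, annotated and scaled, or why a floor was set, is not given in the sources used here. Each library's file equalled its column of the table (8 of 8). Values were used as deposited, with no pseudocount. The interaction was fitted in limma 3.58.1 (R 4.3.3) with a mean-variance trend over all 8 libraries (4 groups of 2), without a block (4 residual degrees of freedom) and with the batch as a block (3). p-values were adjusted by Benjamini-Hochberg over the 12315 entries above 5 in at least 2 libraries, threshold 0.05; 17422 entries were at the floor throughout. The fit without the block was the planned one, and the block was an alternative to it. Same-numbered libraries came from the same batch of cells per the labels. With each group's mean removed, the same-batch libraries correlated at 0.565 to 0.726 in the 6 pairings of groups. The block treats them as paired.

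Depth was estimated from how far apart low linear values (32 to 80) lay, at 11.3 to 37.1 M reads per library; counts were not recovered, so precision rests on the spread between libraries. Genes named were the knocked-down kinases, the 12 largest called in each direction above the median level, up to 3 called members of a list in at most 12 lists, fixed readouts, and genes whose LATS1/2 effect changed sign; list members called only after rescaling were added after their values were seen. Entries that repeat a symbol (147 of those tested) and families of near-identical copies were not named, except the SAA genes. Some genes that this rule takes are not reported. The members, lists and rule were chosen with earlier results of these data known, so no list is independent evidence. Alternatives were other filters, pseudocounts of 1 and 32, no trend, robust shrinkage, rescaling by library medians, per-batch contrasts alone, libraries left out, the linear scale and, chosen after seeing the data, the same with the block, centring within 20 bins of transcript length (88.9% of entries had one) and genes above the floor in all libraries. The procedure was tried on simulated data without a floor, a depth difference or a treatment effect that differs between batches. It therefore does not speak to those. Promoter sequences came from RefSeq for GRCh38.p14, matched by symbol or synonym; no coordinates of the hg19 files were used.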

Additional observations from a re-analysis of the deposited data

Results flagged for a closer look

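TLR1 was singled out because the difference made by LATS1/2 siRNA was -0.62 without p53 siRNA and 0.97 with it, with opposite signs in both batches. C1orf38 gave -0.66 and 0.69 under the same comparison. KANK4 gave -0.53 and 0.61. The difference itself passed for all 3 with the batch as a block (limma, adjusted p = 0.00934, 0.0303 and 0.0173) and for none of them without it (0.749, 0.743 and 0.777).

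The median interaction of the 43 interferon-stimulated genes tested was -0.628 in batch 1 and 0.717 in batch 2. It was singled out because the batches moved in opposite directions; with 1 value per batch, the difference between batches was not tested. The 2 shallow libraries of batch 1 (siControl and siLATS_p53) enter with a plus sign, and the part of depth in this difference was not tested.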

How the results depend on the processing

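Without the block, 0 genes were called under each alternative run (filters, pseudocounts, trend, shrinkage, rescaling, per-batch contrasts alone), and 0 with each library left out in turn (its group then keeps 1 library, taken to vary as the others do). The replicate block gave 250, and 112 with rescaling. Around the 250, leaving out each library with the block gave 0 to 37, and leaving out the 2 shallowest libraries (siControl and siLATS_p53 of batch 1) gave 0, the estimates then being those of batch 2 alone (lowest adjusted p 0.269 among the 47 called genes named here). With the block, testing genes above 5 in at least 1 library gave 23, genes above 6 in at least 4 gave 471, genes above the floor in all libraries 525, no mean-variance trend 2, robust shrinkage 391, and centring within transcript length bins 110. Settings that gave close counts were pseudocounts of 1 and 32 (250 and 222) and only genes with a length (261). Rescaling with genes above the floor in all libraries gave 249, of which 148 were positive and 101 negative and 173 were among the 250. Of the 250, 246 were among the 391, 235 among the 471, 227 among the 525, and 101 among the 112. Of the 47 named genes called, 34 stayed called with rescaling. The cause of these changes was not tested. The correlation between batches was 0.326 for genes above the floor in all libraries. Over 1640 recomputed values of 55 named genes, 1193 kept direction and side, 445 passed the threshold that they missed without the block, and 2 reversed: on the linear scale CYR61 was -527.3 and CTGF -211.8.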

Other observations

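The genes of this paragraph were chosen after their values were seen. Cytosolic ribosomal proteins, the structural proteins of the translating ribosome, had a median interaction of 0.263 over 72 genes (0.322 in batch 1 and 0.211 in batch 2). The median over all genes was 0.097. Of the 72, 57 were positive in both batches (79.2%, against 45.2% of all genes). With the block 6 were called, all as positive (8.33%, against 2.03% of all genes). After rescaling the median was 0.168 and 1 was called. GAS5 and SNHG3, host transcripts of small nucleolar RNAs, were called as negative at -0.46 (-0.49 and -0.43) and -0.45 (-0.45 and -0.46), with adjusted p = 0.0473 and 0.0457 with the block. ADAMTS1, a secreted metalloprotease, had an interaction of -1.38 (-1.70 and -1.05, adjusted p = 0.0110), with a LATS1/2 effect of 3.19 without p53 siRNA and 1.81 with it. GJA5, a gap junction connexin, went the other way at 1.03 (0.87 and 1.19, adjusted p = 0.00934), with effects of 3.37 and 4.40. APOBEC3B, a cytidine deaminase, had an interaction of 1.57 (1.57 and 1.56, adjusted p = 0.0121). Its LATS1/2 effect was 0.02 without p53 siRNA and 1.58 with it. It was at the floor in 2 libraries, and its highest level outside siLATS_p53 was 5.60, in sip53 of batch 1. In siLATS_p53 it measured 7.21 and 6.62. The floor therefore leaves the size of this interaction uncertain.

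Transcript length moved with the interaction in batch 2 more than in batch 1. Over 10174 genes, which are not independent, Spearman's rho was -0.204 in batch 2 and -0.036 in batch 1. The shortest eighth of transcripts had medians of 0.187 in batch 1 and 0.207 in batch 2, and the longest eighth 0.127 and 0.02. By level, the standard deviation of the batch 1 interaction ran from 0.561 in the 20% of genes lowest in level to 0.23 in the 20% highest, and that of batch 2 from 0.48 to 0.218.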
